A study of Homo sapiens with 11 samples.

Results

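The genes described are the nuclear-encoded subunits of respiratory complexes II, III, IV and V. They were taken from the count table by symbol: the SDHA to SDHD genes, CYC1, and every symbol that starts with UQCR, COX4, COX5, COX6, COX7, COX8 or ATP5, leaving out numbered pseudogene symbols, of which there were 0. The rule found 46 of the 19990 genes, with 4 in complex II, 10 in complex III, 14 in complex IV and 18 in complex V. It also takes in UQCRHL, a copy of UQCRH, COX7A2L, which is known as an assembly factor of supercomplexes, and ATP5IF1, the inhibitor of the synthase. All 46 genes passed the filter on low counts.

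The cells were cardiomyocytes made at passage 63 from WTC11, a human line of induced pluripotent stem cells in wide use. They were differentiated with CHIR99021, an inhibitor of the kinase GSK3, followed by IWP2, an inhibitor of Wnt secretion, and then held in B27 medium with insulin. All wells came from the same differentiation, with 4 taken on Day 30, 3 on Day 60 and 4 on Day 113. No group had another genotype or treatment. P-values therefore measure the spread between wells, and not between differentiations or lines. No batch is labelled, and day of culture and collection coincide, so these cannot be told apart.

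Complex II (succinate dehydrogenase) passes electrons from succinate to ubiquinone, complex III passes them on to cytochrome c, and complex IV (cytochrome c oxidase) hands them to oxygen. Complex V is the ATP synthase, which is driven by the proton gradient that complexes III and IV help to build. Some subunits of complex IV come in 2 forms, and in adult heart the COX6A2 and COX7A1 forms are known to take the place of COX6A1 and COX7A2, which are often called liver isoforms. Such a switch is used as a sign of maturity in cultured cardiomyocytes.

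The promoters of COX6A2 and COX6A1 are shown because COX6A2 rose and fell over the 3 days while COX6A1 was not called, and that of UQCRQ because it had the highest fold change of complex III from Day 30 to Day 113. Each is the 250 bases before the gene's start in RefSeq (GRCh38.p14), 5′ to 3′ on the gene's strand, with capitals for matches to the motifs searched. The COX6A2 window is chr16:31428361-31428610 on the minus strand, with 2 E-box matches. The COX6A1 window is chr12:120437863-120438112 on the plus strand, with a match to the NRF1 motif and another to the ETS motif, both on the opposite strand. The UQCRQ window is chr5:132866392-132866641 on the plus strand, with 1 ETS match. Gene coordinates below are those of GENCODE release 29, where these genes start further upstream than in RefSeq. By them the end of each window, with both ETS matches and the second E-box of COX6A2, lies inside the gene.
COX6A2: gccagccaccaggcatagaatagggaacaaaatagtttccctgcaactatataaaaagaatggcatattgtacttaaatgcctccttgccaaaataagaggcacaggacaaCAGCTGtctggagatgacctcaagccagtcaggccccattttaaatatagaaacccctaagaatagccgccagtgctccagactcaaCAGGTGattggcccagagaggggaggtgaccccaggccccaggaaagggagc
COX6A1: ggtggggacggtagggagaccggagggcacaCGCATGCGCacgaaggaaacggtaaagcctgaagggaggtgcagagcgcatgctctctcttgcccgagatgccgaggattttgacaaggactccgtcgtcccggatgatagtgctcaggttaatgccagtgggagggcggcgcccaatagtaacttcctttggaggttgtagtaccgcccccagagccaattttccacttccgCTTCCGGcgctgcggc
UQCRQ: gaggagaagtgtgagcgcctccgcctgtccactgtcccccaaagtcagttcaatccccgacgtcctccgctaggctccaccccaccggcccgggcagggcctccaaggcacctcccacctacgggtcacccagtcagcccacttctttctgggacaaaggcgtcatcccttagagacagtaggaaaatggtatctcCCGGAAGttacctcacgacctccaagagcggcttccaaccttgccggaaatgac

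Promoter windows of 300 bases (250 before the start and 50 after it) were found for 35 of the 46 genes and searched on both strands. The NRF1 motif GCGCATGCG was in 6 of the 35 (17.1%), beside 2.34% of 27305 gene windows. The ETS motif CCGGAAG, as bound by the factor GABP, was in 16 (45.7%, beside 12.2%). These were SDHB, SDHD, UQCRH, UQCRQ, UQCR11, COX4I1, COX5B, COX6A1, COX6B1, COX8A, ATP5F1A, ATP5MD, ATP5ME, ATP5MG, ATP5PD and ATP5PF. The motif CAAGGTCA of the oestrogen-related receptors was in 3 (8.57%, beside 1.60%), namely SDHD, COX8A and ATP5MG. The E-box CANNTG, which reads alike on both strands, was in 21 (60.0%, beside 73.1%), and the MEF2 motif was in 0 (beside 0.714%). These are matches of letters, and no binding was measured.

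Summed, the 46 genes were at 7721 ± 191 CPM in the Day 30 wells (SD, n = 4), where CPM are counts per 1000000 counts of a TMM-scaled library. The sum was 8776 ± 178 CPM in those of Day 60 (SD, n = 3) and 8552 ± 1601 CPM in those of Day 113 (SD, n = 4). All 3 Day 60 wells were above all 4 Day 30 wells (8595 to 8950 CPM against 7523 to 7907), while the Day 113 wells ran from 6941 to 10578 CPM. ATP5F1B, the catalytic beta subunit of the synthase, was the member with the highest counts, at 1076 ± 18.9 CPM (SD, n = 4) at Day 30. In poly(A) libraries of whole wells, fewer cells of a type and less RNA per cell cannot be told apart.

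The first comparison asked how the subunits differed between Day 30 and Day 60. Of the 46 genes, 3 rose (COX6A2, SDHB and UQCRB) and 0 fell, beside 4.39% of all genes that rose and 5.91% that fell. These calls, like all adjusted p-values of single genes below, are from edgeR's quasi-likelihood test at an adjusted p under 0.05. At an unadjusted p under 0.05, 10 were higher and 0 lower, beside 10.1% and 13.0% of all genes. DESeq2 called 5 higher and 0 lower, beside 6.01% and 7.56%. The fitted change was above 0 for 42 of 46, with a median log2 fold change of 0.19, where the median of all genes was -0.011. The wells of both days did not overlap for 20 genes, all higher at Day 60, beside 10.7% of all genes higher and 14.1% lower.

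Between Day 60 and Day 113, 2 genes rose (UQCRQ and SDHC, beside 12.9% of all genes) and 3 fell (COX6A2, SDHA and COX4I2, beside 11.1%). The median was 0.00, with 23 genes above 0 and 23 below. From Day 30 to Day 113, 12 genes rose, beside 17.3% of all genes, and 2 fell, beside 17.2%. The 12 were SDHB, SDHC, SDHD, UQCRQ, UQCR11, COX5B, COX6C, COX7B, ATP5MC1, ATP5PD, ATP5PF and ATP5F1E, and those that fell were SDHA and COX4I2. The median was 0.23 and 34 of 46 fitted changes were above 0. Wells of Day 113 and Day 30 did not overlap for 8 genes that were higher and 2 that were lower, beside 17.1% and 18% of all genes. In all, 16 genes were called in at least 1 pair of days and 30 in none. The genes not called between Day 30 and Day 113 had log2 fold changes from -0.67 (COX7A1, at very low counts) to 0.53 (ATP5ME).

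**Figure D1:**
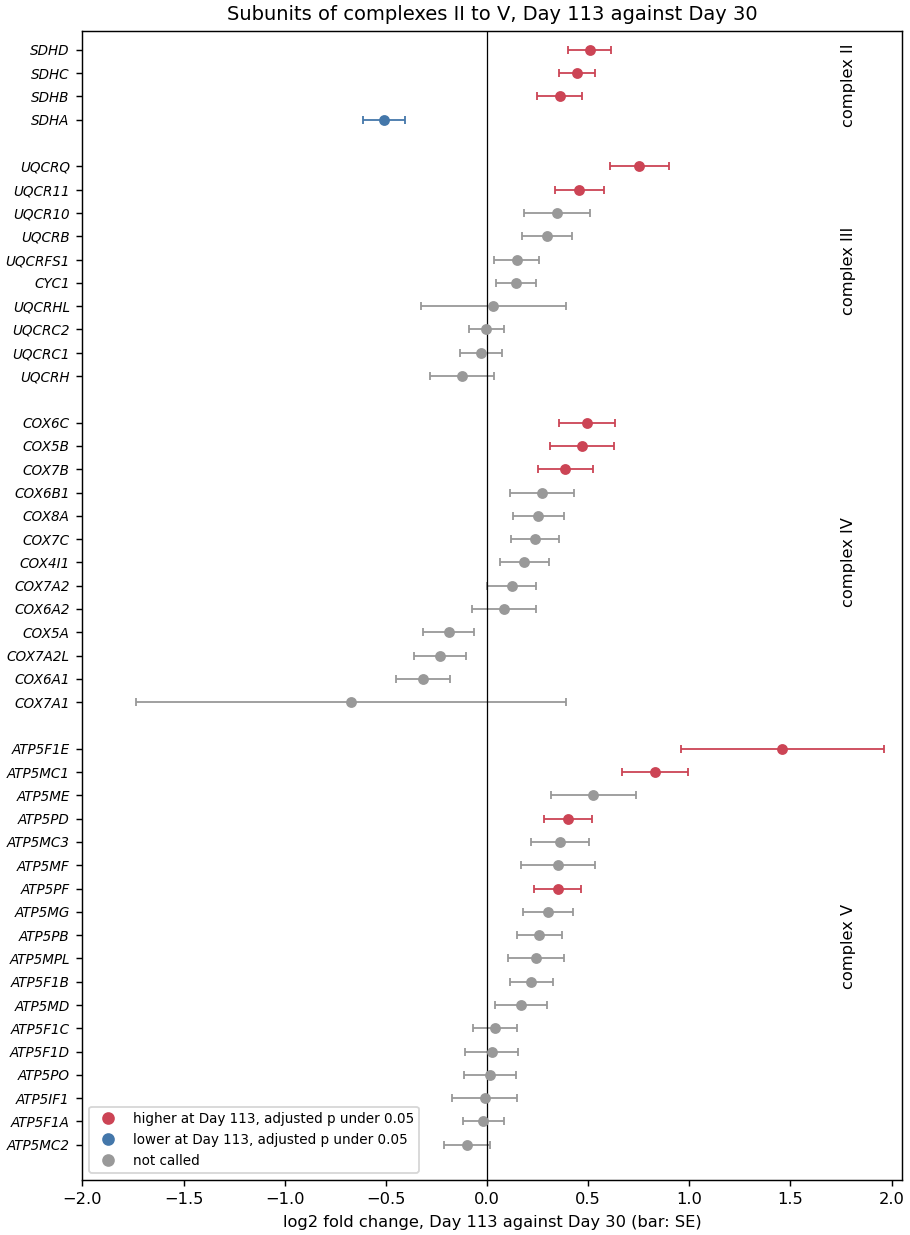
Fitted log2 fold change of Day 113 against Day 30 (x axis) for 45 of the 46 genes, grouped by complex (y axis), with bars for the standard error. COX4I2 is left out because its Day 113 counts were all 0. In complex II SDHA (-0.51) lay apart from its 3 partner subunits (0.36 to 0.51), and in complex V ATP5MC1 (0.83) and ATP5F1E (1.46) were highest.

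The counts for Day 113 depended on single wells. Day 113 replicate 2 was the highest well of its day for 44 of the 46 genes, and replicate 1 was the lowest for 39. Over 10356 genes with a mean of at least 10 CPM, replicate 2 was highest for 38.5% and replicate 1 lowest for 24.9%. Taking each gene against its Day 30 mean, the median log2 difference of the 46 was -0.12, 0.52, 0.08 and 0.30 in Day 113 replicates 1 to 4, and 0.20, 0.21 and 0.17 in the Day 60 wells. Each of the 4 complexes taken alone gave the same order of the Day 113 wells, though not of the Day 60 wells. In Day 113 replicates 1 to 4 the medians were 0.23, 0.62, 0.27 and 0.41 in complex II. In complex IV they were -0.20, 0.53, 0.03 and 0.14. The median coefficient of variation of the 46 genes was 6.97% at Day 30, 7.29% at Day 60 and 20.9% at Day 113, where that of the 10356 genes was 8.46%, 10.1% and 13.3%. Without replicate 1, 23 genes rose from Day 30 to Day 113, beside 17.1% of all genes in the same fit. Without replicate 2, 8 rose and 6 fell, beside 16.4% and 17.6% of all genes, and the median was 0.08 in place of 0.23. In that fit 9 fell from Day 60 to Day 113, beside 11.4% of all genes. After correction for transcript length and GC content the 4 medians were -0.08, 0.39, 0.04 and 0.17.

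**Figure D2:**
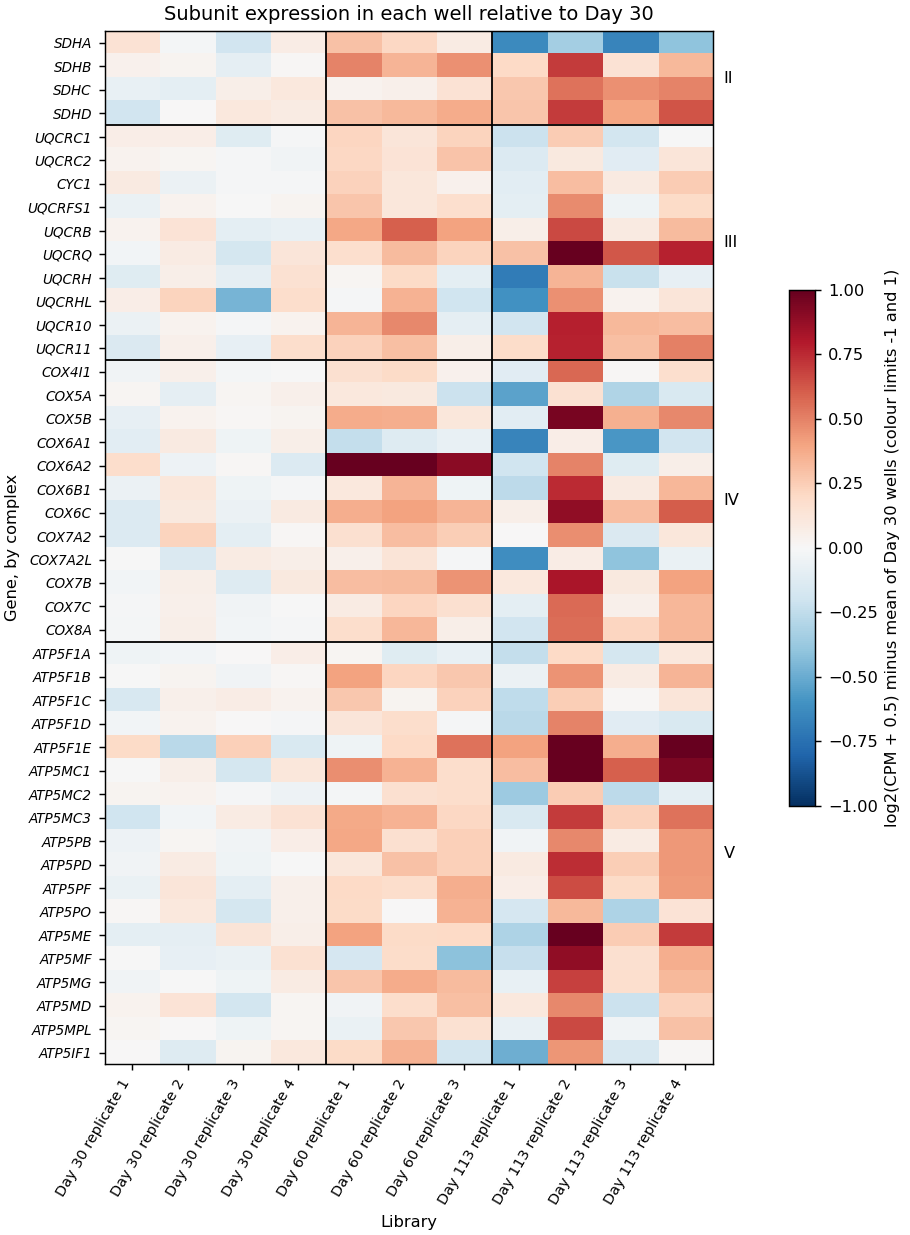
Each row is a gene, by complex, and each column a well. Colour is log2(CPM + 0.5) minus the mean of the Day 30 wells, with values beyond -1 and 1 shown at the limit, and COX4I2 and COX7A1 are left out for their low counts. The Day 113 replicate 2 column is red for most genes and replicate 1 pale or blue, SDHA is blue in all 4 Day 113 wells, and COX6A2 is dark red in the Day 60 wells.

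Markers of cell types were measured in the same wells. All 10 cardiomyocyte markers were in the table, and their sum was 32091 to 43947 CPM at Day 30, 38876 to 44316 CPM at Day 60 and 33795 to 37687 CPM at Day 113. The 7 fibroblast markers, all in the table, summed to 3353 to 7706 CPM, 2068 to 3569 CPM and 5427 to 13033 CPM. Of these, COL1A1, DCN and POSTN rose from Day 30 to Day 113, PDGFRA fell from a mean of 144 to 32.3 CPM and LUM from 50.2 to 20.8 CPM, and COL1A2 and COL3A1 were not called (adjusted p 0.16 and 0.061). The collagen genes COL1A1, COL1A2 and COL3A1 had means of 2112 to 3623 CPM at Day 113 and the other 4 of 20.8 to 195 CPM, so the sum is mostly collagen. In Day 113 replicates 1 to 4 the fibroblast sum was 13033, 6754, 11264 and 5427 CPM. Replicates 1 and 3, with the lower medians of the 46 genes, were thus the higher ones in fibroblast markers. The cardiomyocyte sum in the same wells was 35628, 37687, 34585 and 33795 CPM, lowest in replicate 4, whose median was 0.30. MYH7 was the largest part of that sum, with means of 15412 CPM at Day 30 and 9277 CPM at Day 113. Means of TNNT2 (2748 and 4334 CPM), TNNI1 (3812 and 5038) and MYL7 (5800 and 6746) were higher at Day 113. Of the 10 cardiomyocyte markers, 2 rose and 2 fell from Day 30 to Day 113, beside 17.3% and 17.2% of all genes. At Day 30, replicates 2 and 4 had the highest and lowest fibroblast sums (7706 and 3353 CPM) and medians of 0.035 and 0.041. All 6 endothelial markers rose from Day 30 to Day 113, from 53.7 to 77.9 CPM in sum to 185 to 749 CPM, with 749 in replicate 1. The 6 endoderm and epithelium markers all fell, from 353 to 960 CPM in sum at Day 30 to 5.77 to 23.4 CPM at Day 113. Of the smooth muscle markers 3 of 4 were in the table (702 to 1096 CPM at Day 113, 446 to 685 at Day 30), and of the pluripotency markers 2 of 4, at 0 to 9.27 CPM in any well. No marker in the table had 0 counts in all wells. The part of these markers in the results was not tested.

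**Figure D3:**
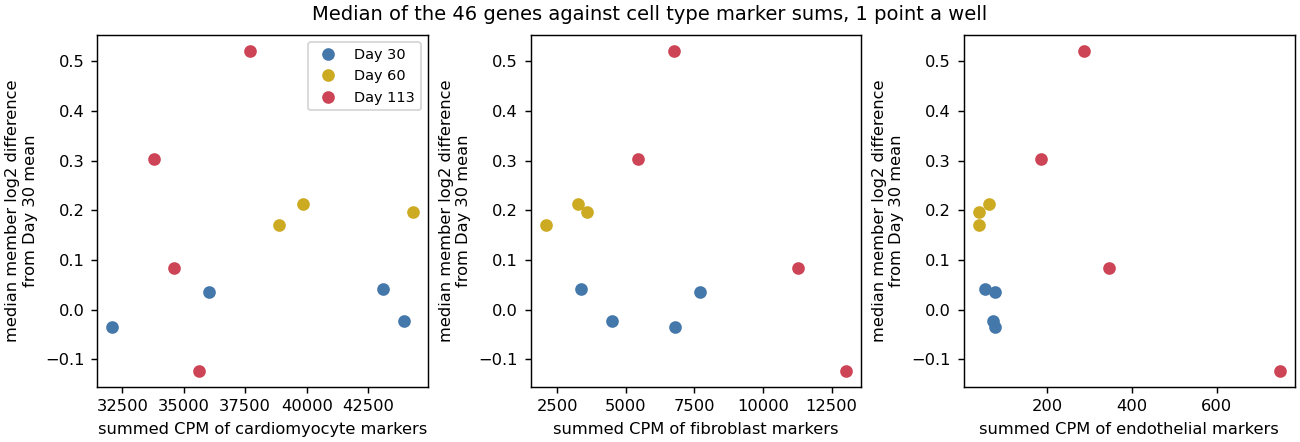
Each point is a well, coloured by day, with the summed CPM of cardiomyocyte, fibroblast or endothelial markers on the x axis and the median log2 difference of the 46 genes from their Day 30 mean on the y axis. At Day 113, the replicates with fibroblast sums of 5427 and 6754 CPM had medians of 0.30 and 0.52, and those with 11264 and 13033 CPM had 0.08 and -0.12. At Day 30, the wells with sums of 3353 and 7706 CPM had medians of 0.041 and 0.035.

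In complex II, the catalytic flavoprotein SDHA fell while the iron-sulfur subunit SDHB and the membrane anchors SDHC and SDHD rose. SDHA (chromosome 5, 218241 to 256700, plus strand, GRCh38) was at 352, 314, 278 and 334 CPM in the Day 30 wells. It was at 389, 367 and 336 CPM at Day 60 and at 205, 251, 201 and 240 CPM at Day 113. Every Day 113 well was below every well of the earlier days, which overlapped each other. SDHA fell by 0.70 ± 0.11 on the log2 scale (SE) from Day 60 (adjusted p 3.5e-04) and by 0.51 ± 0.10 from Day 30 (adjusted p 0.0011). The direction was the same without Day 113 replicate 2, which was high for most genes, at -0.57 from Day 30. Its change also differed between the 2 intervals (log2 difference -0.89 ± 0.19, adjusted p 0.0095), where 9.34% of all genes and 2 of the 46 did so. That difference missed the threshold without Day 60 replicate 1 (-0.82, adjusted p 0.067).

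SDHD (chromosome 11, 112086773 to 112120013, plus strand) was at 71.7, 82.3, 88.5 and 86.7 CPM at Day 30. Its Day 60 wells were at 101, 103 and 106 CPM, and those of Day 113 at 99.4, 133, 108 and 127 CPM. The Day 30 wells were below all the others, and the later days overlapped. SDHD rose by 0.51 ± 0.10 on the log2 scale from Day 30 to Day 113 (adjusted p 0.0013). From Day 30 to Day 60 DESeq2 called it higher (adjusted p 0.032) and edgeR did not (adjusted p 0.077). SDHC rose by 0.44 ± 0.09 (adjusted p 0.0011), with wells at 68.6 to 79.1 CPM at Day 30 and 88.4 to 107 CPM at Day 113. SDHC also rose from Day 60 (0.37 ± 0.10, adjusted p 0.012), a call lost without Day 60 replicate 1 (adjusted p 0.059).

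SDHB rose early, from 60.1 ± 2.57 CPM (SD, n = 4) at Day 30 to 81.3 ± 4.62 (SD, n = 3) at Day 60 (log2 fold change 0.44 ± 0.12, adjusted p 0.029), and was at 77.1 ± 14.3 (SD, n = 4) at Day 113. The early rise of SDHB missed the threshold in 6 of 11 fits without 1 well (each Day 30 well, and Day 60 replicates 1 and 3), with adjusted p up to 0.088. Its rise from Day 30 to Day 113 was 0.36 ± 0.11 (adjusted p 0.021, and 0.063 without Day 30 replicate 3). The 4 genes together were at 535 ± 28.4 CPM in the Day 30 wells (SD, n = 4), 626 ± 22.1 CPM by Day 60 (SD, n = 3) and 519 ± 60.2 CPM in the Day 113 wells (SD, n = 4). SDHA has near-identical pseudogene copies, and those in the table, SDHAP1 and SDHAP3, were at 23.0 and 21.0 CPM at Day 30 and 20.8 and 17.4 CPM at Day 113. SDHAP1 fell from Day 60 to Day 113 by 0.50 (adjusted p 0.012), and how reads were shared between SDHA and these copies is not given.

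**Figure D4:**
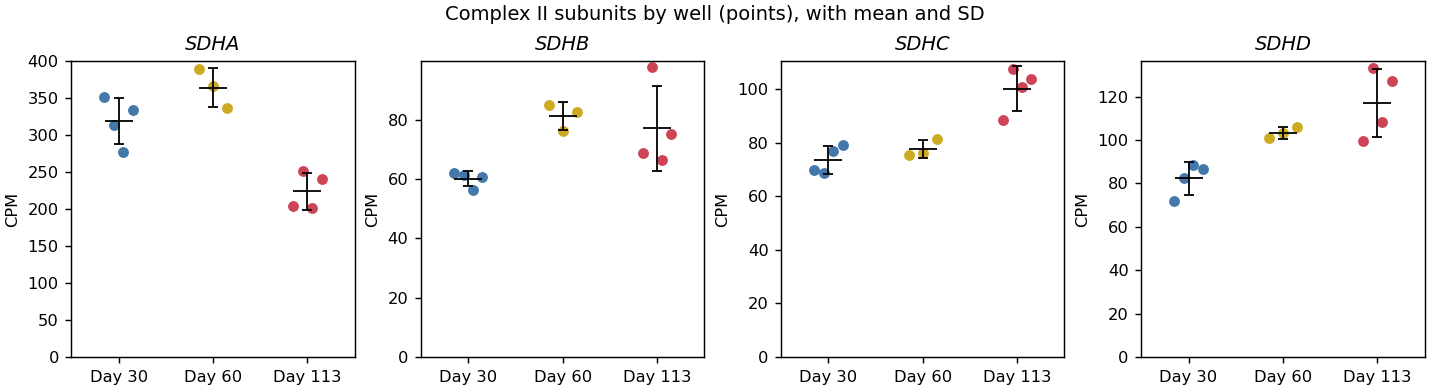
CPM of SDHA, SDHB, SDHC and SDHD (y axes, from 0) by day (x axes), with a point for each well and the mean and SD in black. SDHA is lowest in the 4 Day 113 wells (201 to 251 CPM), where SDHC and SDHD have their highest means (100.1 and 117 CPM).

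In complex III, UQCRQ and UQCR11 rose by Day 113, UQCRB rose by Day 60, and edgeR called none of the other 7 genes in any pair of days. DESeq2 also called UQCRC2 lower at Day 113 than at Day 60 (log2 -0.23, adjusted p 0.039) and UQCRB higher at Day 113 than at Day 30 (0.29, adjusted p 0.049). UQCRQ, a small subunit known as a ubiquinone-binding protein (chromosome 5, 132866560 to 132868031, plus strand), was at 85.4, 91.9, 76.9 and 94.3 CPM at Day 30. It was at 97.6, 109 and 102 CPM at Day 60 and at 106, 200, 134 and 148 CPM at Day 113. All Day 60 and Day 113 wells were above the Day 30 wells, and Day 113 replicate 1 lay within the Day 60 range. UQCRQ rose by 0.75 ± 0.15 on the log2 scale from Day 30 to Day 113 (adjusted p 8.3e-04), and by 0.57 without the high replicate 2. Its rise from Day 60 (0.52 ± 0.16, adjusted p 0.026) missed the threshold without Day 60 replicate 1 (adjusted p 0.098) or replicate 3 (0.081). Exons of UQCRQ overlap GDF9 on the opposite strand, and strand use in counting is not given.

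UQCRB, another small subunit known for binding ubiquinone, rose by 0.46 ± 0.13 from Day 30 to Day 60 (adjusted p 0.033), from wells at 158 to 187 CPM to wells at 222 to 257 CPM, which did not overlap. That call was lost in 6 of 11 fits without 1 well (Day 30 replicates 1, 3 and 4 and each Day 60 well), with adjusted p up to 0.13, and its Day 113 wells spread from 177 to 268 CPM. UQCR11, also a small subunit, rose by 0.45 ± 0.12 from Day 30 to Day 113 (adjusted p 0.0082), with wells at 77.7 to 97.0 and at 97.6 to 147 CPM. UQCRH, the hinge protein that helps complex III bind cytochrome c, had the lowest fold change of the complex, -0.12 ± 0.16 (adjusted p 0.60). Its wells were at 167, 189, 171 and 202 CPM at Day 30, 185, 208 and 170 CPM at Day 60 and 112, 230, 156 and 172 CPM at Day 113. The Day 113 wells of UQCRH lay on both sides of the earlier ones. The core proteins UQCRC1 and UQCRC2, cytochrome c1 (CYC1) and the Rieske protein UQCRFS1 had changes from Day 30 to Day 113 between -0.03 and 0.15. UQCR10, a further small subunit, was at 0.35 (adjusted p 0.11), and UQCRHL, whose wells were at 1.21 to 3.07 CPM, at 0.03.

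In complex IV, the isoform comparison asked whether the heart forms gained on the liver forms over time. COX6A2, the heart and skeletal muscle form of subunit VIa (chromosome 16, 31427731 to 31428428, minus strand), was at 14.8, 12.6, 13.2 and 11.9 CPM at Day 30. It was at 28.7, 29.4 and 24.9 CPM at Day 60 and at 11.3, 18.6, 12.0 and 13.7 CPM at Day 113. All Day 60 wells were above all wells of the other days, which overlapped each other. COX6A2 rose 2.11-fold by Day 60 (log2 1.08 ± 0.17, adjusted p 7.1e-04) and then fell by 0.99 ± 0.17 on the log2 scale (adjusted p 5.8e-04). At Day 113 it differed from Day 30 by 0.08 ± 0.16 (adjusted p 0.74). The change differed between the intervals by -2.07 ± 0.29 (adjusted p 7.8e-04), which with SDHA makes the 2 members called on that contrast. The rise, the fall and their difference were called in each of the 11 fits without 1 well.

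COX6A1, the liver form (chromosome 12, 120438090 to 120440742, plus strand), was at 85.7, 98.0, 89.8 and 96.3 CPM at Day 30. It was at 78.1, 84.6 and 87.6 CPM at Day 60 and at 58.1, 96.8, 61.6 and 80.7 CPM at Day 113. The days overlapped, and the change from Day 30 to Day 113 was -0.32 ± 0.13 (adjusted p 0.081), which passed without Day 113 replicate 2 (-0.47, adjusted p 0.0037). It also passed with limma-voom (-0.36, adjusted p 0.045), with the replicate number as a block (-0.34, adjusted p 0.029) and after correction for length and GC content (-0.36, adjusted p 0.0080), but not with DESeq2 (adjusted p 0.063). COX6A2 made up 12.5% ± 1.69 of the pair's counts in the Day 30 wells (SD, n = 4), 24.9% ± 2.51 by Day 60 (SD, n = 3) and 15.8% ± 0.881 in the Day 113 wells (SD, n = 4). Per length of their main transcripts (440 and 572 bases in GENCODE release 29), COX6A1 was the higher by 5.42-fold at Day 30, 2.32-fold at Day 60 and 4.11-fold at Day 113. So COX6A1 was the more abundant form at each day.

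The log2 ratio of COX6A2 to COX6A1, which does not depend on scaling between libraries, was -2.53, -2.95, -2.77 and -3.02 at Day 30. It was -1.44, -1.52 and -1.82 at Day 60 and -2.36, -2.38, -2.36 and -2.56 at Day 113. The Day 60 wells did not overlap with the others, and at Day 113 all but replicate 4 were above the Day 30 wells. The differences were 1.22 from Day 30 to Day 60, -0.82 from Day 60 to Day 113 and 0.40 from Day 30 to Day 113. The exact two-sided permutation p was 0.0571 for each, and 0.114 after adjustment over 12 ratio tests. Before adjustment, 0.0571 is the smallest p possible for the 2 comparisons of 3 wells against 4. For 4 wells against 4 it is 0.0286. The smallest adjusted p of any of the 12 ratio tests was 0.114. With these numbers of wells no adjusted p could have gone below 0.0571, even with complete separation in every test. No ratio could therefore have passed the threshold used for single genes, and the adjusted p-values cannot decide whether a ratio changed.

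**Figure D5:**
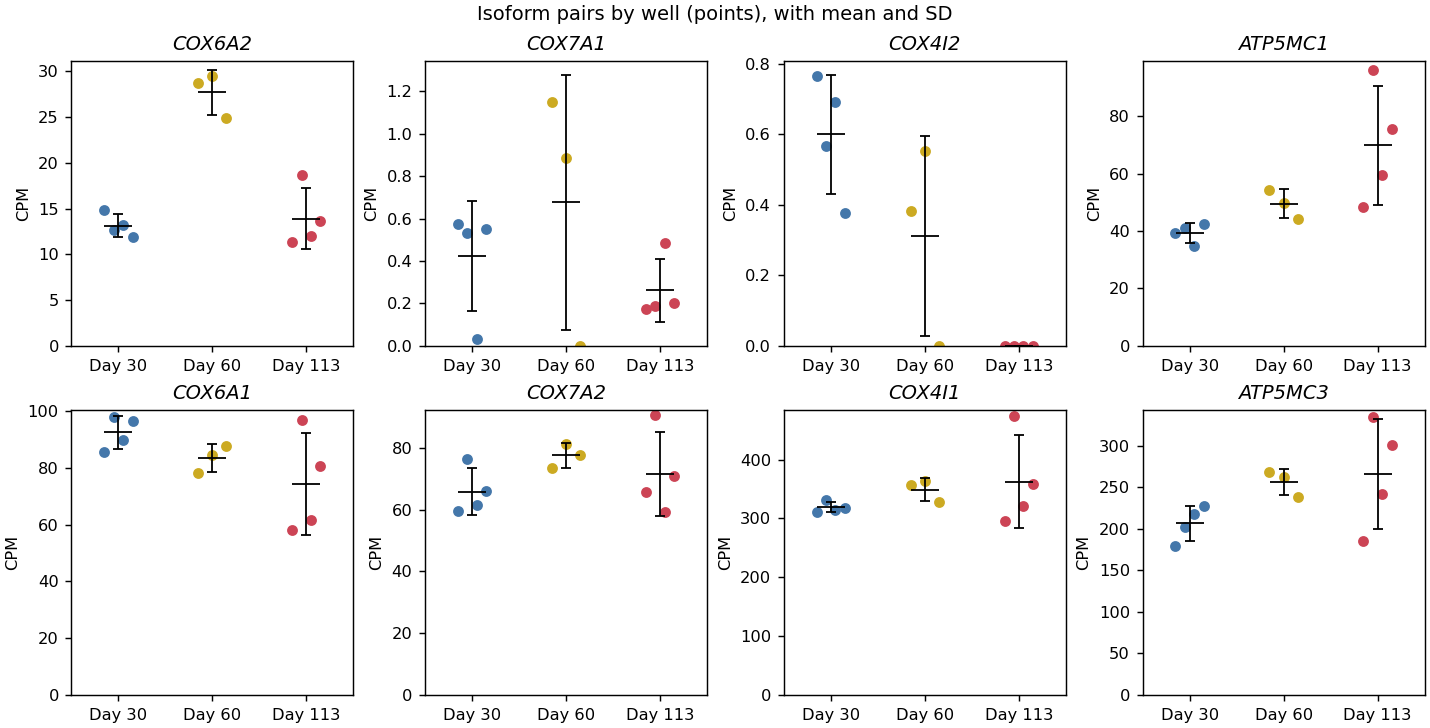
CPM by day (x axes) for 4 isoform pairs, with a point for each well and the mean and SD in black; y axes start at 0 and differ between panels. Heart or tissue forms and ATP5MC1 are above, and their partners below. COX6A2 is highest in the 3 Day 60 wells, COX4I2 is at 0 in all Day 113 wells, and ATP5MC1 has its highest mean at Day 113 (69.9 CPM).

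COX7A1, the heart form of subunit VIIa (chromosome 19, 36150922 to 36152869, minus strand), was close to the counting floor. Its counts were 15, 16, 1 and 16 at Day 30, 36, 24 and 0 at Day 60, and 6, 5, 17 and 5 at Day 113. No day stood apart, and it was not called in any pair of days (log2 fold change -0.67 ± 1.06 from Day 30 to Day 113, adjusted p 0.67). Its partner COX7A2 (chromosome 6, 75237675 to 75250323, minus strand) was at 59.6, 76.4, 61.4 and 66.0 CPM at Day 30. COX7A2 was at 73.5, 81.4 and 77.9 CPM at Day 60 and 65.7, 90.6, 59.3 and 71.0 CPM at Day 113, with overlap between all days. Of the pair's counts COX7A1 held 0.631% ± 0.399 in the Day 30 wells (SD, n = 4), 0.872% ± 0.790 by Day 60 (SD, n = 3) and 0.391% ± 0.283 in the Day 113 wells (SD, n = 4). The log2 ratio differed by -0.52, 0.13 and -0.38 between the days, in the order used above (exact permutation p 0.857, 0.914 and 0.771).

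COX4I2, the lung form of subunit IV that is known to respond to low oxygen (chromosome 20, 31637888 to 31645006, plus strand), was likewise low. Its counts were 20, 17, 21 and 11 at Day 30, 12, 15 and 0 at Day 60, and 0 in all 4 Day 113 wells. Day 60 replicate 3, with 0 for COX4I2, was also the Day 60 well with 0 for COX7A1. Against a floor of 3 counts per library, COX4I2 was at least 5.93-fold lower at Day 113 than at Day 30 (adjusted p 0.0051) and at least 3.08-fold lower than at Day 60 (adjusted p 0.019). The call against Day 60 was lost without Day 60 replicate 2 (adjusted p 0.056), where the bound was 1.89-fold. COX4I1, the common form (chromosome 16, 85798633 to 85807044, plus strand), was at 312, 331, 315 and 317 CPM at Day 30, 357, 363 and 327 CPM at Day 60 and 295, 474, 321 and 358 CPM at Day 113. COX4I2 was 0.188% ± 0.055 (SD, n = 4) of the counts of this pair at Day 30. With the pseudocount of 0.5, the log2 ratio of the pair at Day 113 minus that at Day 30 was -5.32 (exact permutation p 0.0286, adjusted 0.114), a size that rests on the counts of 0. COX6B2, the testis partner of COX6B1, had no row and was not analysed here.

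Among complex IV subunits without such isoforms in the table, COX6C, COX5B and COX7B rose from Day 30 to Day 113. COX6C, a small membrane subunit (chromosome 8, 99873200 to 99894062, minus strand), had the highest fold change of the complex, 0.50 ± 0.14 (adjusted p 0.010). Its wells were at 109, 128, 115 and 127 CPM at Day 30, 154, 158 and 151 CPM at Day 60 and 125, 221, 148 and 182 CPM at Day 113. Day 113 replicate 1 lay within the Day 30 range of COX6C, and the Day 60 wells were all above that range. COX6C has 17 numbered pseudogenes in the annotation, with no row in the table. COX5B, the subunit that holds zinc, rose by 0.47 ± 0.16 (adjusted p 0.030), and COX7B by 0.39 ± 0.13 (adjusted p 0.035). The COX5B call was lost in 6 of 11 fits without 1 well (each Day 30 well and Day 113 replicates 2 and 4; adjusted p 0.10 without replicate 2, log2 0.26), and that of COX7B in 5 of 11 (Day 30 replicates 1, 2 and 3 and Day 113 replicates 2 and 4; adjusted p 0.10 without replicate 2, log2 0.21). COX5A, which had the reverse sign at -0.19, COX6B1, COX7C, COX8A and COX7A2L were not called in any pair of days.

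In complex V, 4 of 18 genes rose from Day 30 to Day 113 (beside 17.3% of all genes) and 0 fell (beside 17.2%). In the other pairs of days edgeR called 0 of the 18. Of all genes it called 4.39% higher and 5.91% lower from Day 30 to Day 60, and 12.9% and 11.1% from Day 60 to Day 113. At an unadjusted p under 0.05, 3 were higher at Day 60 than at Day 30 (beside 10.1% of all genes) and 2 higher at Day 113 than at Day 60 (beside 18.9%). DESeq2 called 1 in each, ATP5F1B by Day 60 (adjusted p 0.039, beside 6.01% of all genes) and ATP5MC1 after it (adjusted p 0.035, beside 14.1%). ATP5MC1 encodes subunit c of the membrane ring, whose turning drives the synthase. ATP5MC1, ATP5MC2 and ATP5MC3 are known to give the same mature protein from different precursors. ATP5MC1 (chromosome 17, 48892765 to 48895871, plus strand) was at 39.1, 40.9, 34.7 and 42.4 CPM at Day 30, 54.4, 49.9 and 44.3 CPM at Day 60 and 48.5, 96.1, 59.5 and 75.5 CPM at Day 113. The Day 30 wells were below all others. It rose by 0.83 ± 0.16 on the log2 scale (adjusted p 9.7e-04), and by 0.64 without Day 113 replicate 2.

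ATP5MC3 (chromosome 2, 175176258 to 175184607, minus strand) was at 179, 202, 218 and 228 CPM at Day 30, 268, 262 and 238 CPM at Day 60 and 185, 335, 242 and 301 CPM at Day 113. Its change from Day 30 to Day 113 was 0.36 ± 0.15 (adjusted p 0.067), with overlapping wells, and it passed without Day 113 replicate 1 (0.50, adjusted p 0.0032), with DESeq2 (adjusted p 0.038) and with the replicate block (0.34, adjusted p 0.045). ATP5MC2 (chromosome 12, 53632726 to 53677408, minus strand) had the lowest fold change of complex V, -0.10 ± 0.11 (adjusted p 0.55). ATP5MC2 was at 274, 275, 267 and 259 CPM at Day 30, 266, 300 and 303 CPM at Day 60 and 209, 320, 224 and 251 CPM at Day 113. Here too the Day 113 wells lay on both sides of the Day 30 wells, and ATP5MC2 fell without replicate 2 (-0.24, adjusted p 0.040). The log2 ratio of ATP5MC1 to ATP5MC3 was -2.39 ± 0.20 in the Day 30 wells (SD, n = 4), -2.37 ± 0.07 by Day 60 (SD, n = 3) and -1.94 ± 0.10 in the Day 113 wells (SD, n = 4). It was higher at Day 113 by 0.46 than at Day 30 and by 0.44 than at Day 60 (exact permutation p 0.0286 and 0.0571, both 0.114 adjusted), with no overlap of wells. As a share of the pair's counts, ATP5MC1 was 16.0%, 16.2% and 20.7%. Per length of their main transcripts (614 and 5484 bases), ATP5MC1 was the higher by 1.70-fold at Day 30, 1.73-fold at Day 60 and 2.35-fold at Day 113. These folds rest on the transcripts chosen.

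ATP5PD and ATP5PF, subunits of the peripheral stalk that holds the catalytic head still, rose by 0.40 ± 0.12 (adjusted p 0.014) and 0.35 ± 0.12 (adjusted p 0.029). The call for ATP5PF was lost in 4 of 11 fits without 1 well (Day 30 replicates 1 and 3 and Day 113 replicates 2 and 4), with adjusted p up to 0.083. The other peripheral stalk genes, ATP5PB and ATP5PO, were not called. Nor were the head subunits ATP5F1A and ATP5F1B or the central stalk subunit ATP5F1C. The changes of these genes were from -0.02 to 0.26. By edgeR, nor were the membrane subunits ATP5ME, ATP5MF, ATP5MG, ATP5MD and ATP5MPL (0.17 to 0.53) or the inhibitor ATP5IF1 (-0.012). DESeq2 called ATP5ME higher (adjusted p 0.038). On the opposite strand, 61.6% of the exon bases of ATP5ME overlap MYL5 and 20.2% of those of ATP5PF overlap GABPA. ATP5F1E, the epsilon subunit of the central stalk (chromosome 20, 59025467 to 59032382, minus strand), had the highest fold change of all 46 genes. Its counts were 23, 15, 28 and 17 at Day 30, 21, 24 and 40 at Day 60 and 38, 87, 37 and 64 at Day 113. In CPM, the Day 113 wells (1.06 to 3.26) were above the Day 30 wells (0.50 to 0.921), with replicates 2 and 4 well above replicates 1 and 3. ATP5F1E rose by 1.46 ± 0.50 (adjusted p 0.033), and the call was lost in 5 of 11 fits without 1 well (Day 30 replicates 1, 2 and 4 and Day 113 replicates 2 and 4), with adjusted p up to 0.13. The delta subunit ATP5F1D of the same stalk had 139 CPM at Day 30, and 23.2% of the exon bases of ATP5F1E overlap TUBB1 on the opposite strand, so its counts are uncertain.

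Genes that build or steer the complexes were read from lists of related genes. Their counts from Day 30 to Day 113 stand beside 17.3% of all genes higher and 17.2% lower. Of the 4 complex II assembly factors, SDHAF2, which attaches the flavin to SDHA, rose from Day 30 to Day 113 (log2 0.67, adjusted p 5.0e-04) and SDHAF4 fell (-0.43, adjusted p 0.024). Of 6 complex III factors in the table (of 9 listed), UQCC2 (1.08) and UQCC1 (0.29) rose and none fell. Of 25 complex IV factors (of 26), 4 rose (COA3 0.83, HIGD1A 0.47, COX19 0.45 and SCO1 0.38) and 2 fell (COX18 -0.42 and COA1 -0.34). Of 6 complex V factors (of 7), ATPAF1 rose (0.61). From Day 30 to Day 60 edgeR called 0 of the 41 genes of these 4 lists, with 5 higher at an unadjusted p under 0.05 (beside 10.1% of all genes) and 3 called higher by DESeq2 (beside 6.01%). CYCS, which encodes the cytochrome c that links complexes III and IV, rose by 0.52 by Day 60 (adjusted p 0.015) and was 0.43 above Day 30 at Day 113 (adjusted p 0.0098). NDUFA4L2, a gene known to be induced by low oxygen, rose by 1.56 and was 1.34 above Day 30 at Day 113, while edgeR did not call NDUFA4. DESeq2 called NDUFA4 higher at Day 60 than at Day 30 (log2 0.29, adjusted p 0.035) and lower at Day 113 than at Day 60 (-0.26, adjusted p 0.039).

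Among 17 regulators of mitochondrial genes, 1 rose by Day 60 (PPARD, 0.71), beside 4.39% of all genes. From Day 30 to Day 113, 4 fell and 0 rose, beside 17.2% of all genes lower and 17.3% higher. Those 4 were the coactivator PPARGC1A, from 83.0 to 47.8 CPM (-0.80, adjusted p 0.0058), the oestrogen-related receptors ESRRG, from 78.9 to 46.3 CPM (-0.77, adjusted p 1.4e-04), and ESRRB, from 10.8 to 2.45 CPM (-2.14, adjusted p 8.2e-04), and the fatty acid sensor PPARA (-0.44, adjusted p 0.0080). PPARGC1A, ESRRG, ESRRB, PPARA and PPARD fell from Day 60 to Day 113, which is 5 of 17 beside 11.1% of all genes. In that interval 0 of the 17 rose, by edgeR (beside 12.9% of all genes), at an unadjusted p under 0.05 (beside 18.9%) and by DESeq2 (beside 14.1%). NRF1, GABPA and ESRRA were not called in any pair of days.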

How the data were processed

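Poly(A) RNA of 11 wells was sequenced as paired-end 150-bp reads, per the labels' protocols. The authors deposited whole-number read counts for 19990 gene symbols. The submitters' processing notes name STAR 2.5.3a, featureCounts 2.0.3 and hg38. Annotation, counting settings and strand use are not given in the sources used here. The deposited TPM values entered only as alternatives, because dividing counts by TPM gave lengths that were unrelated between libraries (median Spearman rho across genes -0.0016 over 55 library pairs).

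All genes were fitted together with edgeR 4.0.16 in R 4.3.3 (TMM scaling, quasi-likelihood F-test, day as the only factor, Benjamini-Hochberg adjustment over 19990 genes, threshold 0.05). No gene fell below filterByExpr's minimum count of 10. DESeq2 1.42.0 and limma 3.58.1 were alternatives. Counts per 1000000 (CPM) used TMM library sizes. Standard errors are the absolute log2 fold change over the square root of F. Isoform ratios were log2 count ratios with a pseudocount of 0.5, tested with two-sided exact permutation tests in scipy 1.17.1 over 12 tests. The planned ratio of COX6B2 to COX6B1 could not be computed, since COX6B2 has no row in the table. A library held 24.1 to 34.5 M counts, where M is 1000000, without molecular identifiers, so the floor of 3 counts per library used for counts of 0 covers counting error only. On data simulated for Day 113 against Day 30, with 19990 genes, 73% of 2-fold and 92% of 4-fold changes were recovered.

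The members and lists were chosen with earlier results of these data known. Named with values in every well were both genes of each isoform pair, the members of each complex with the highest and the lowest fold change of Day 113 against Day 30, and members whose change differed between the intervals. Further called members are named with their fold changes, and up to 4 called genes of each list of related genes.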

Additional observations from a re-analysis of the deposited data

Results flagged for a closer look

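The wells of Day 30 and of Day 113 were examined for a single value far from the others, in 48 groups of 4 wells, where chance alone would set apart about 1 group in 20. The 3 wells of Day 60 were not examined in this way. COX7A1 in Day 30 replicate 3 stood apart at 0.0329 CPM, where the other Day 30 wells were at 0.534 to 0.573 CPM. This rested on 1 count. The log2 ratio of COX7A1 to COX7A2 in the same well was accordingly -10.28, with the others at -7.12 to -6.65. COX7A1 also stood apart in Day 113 replicate 3, at 0.485 CPM against 0.173 to 0.201 CPM in the other 3 wells. The log2 ratio of COX6A2 to COX6A1 in Day 113 replicate 4 was -2.56, below the -2.38 to -2.36 of the other wells of that day.

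Changes that differed between the intervals, for 2 genes, passed the test of the difference itself with edgeR. For SDHA the change from Day 60 to Day 113 minus that from Day 30 to Day 60 was -0.89 on the log2 scale (adjusted p 0.0095). For COX6A2 it was -2.07 (adjusted p 7.8e-04). The intervals share the Day 60 wells, so a value of those wells enters both.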

How the results depend on the processing

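Among the alternatives on counts, DESeq2 called 5 genes higher at Day 60 than at Day 30 (3 by edgeR), beside 6.01% of all genes. The number was 12 with only the 2 days in the fit and 1 at an adjusted p under 0.01. The number higher at Day 113 than at Day 60 (2) was 4 after correction for transcript length and GC content (an alternative added after seeing the data), 1 with only the 2 days in the fit and 0 at an adjusted p under 0.01. The number higher at Day 113 than at Day 30 (12) was 5 at an adjusted p under 0.01. The correction for length and GC content, fitted on 16789 genes of the table, gave 6 members lower than at Day 60 and 4 lower than at Day 30. With it 5 members differed between the intervals (2 in the main test), for which DESeq2 gave 4. With a mean of at least 1 CPM required, COX4I2 was not tested and 1 gene was lower at Day 113 than at Day 30. The cause of the other shifts was not tested. Besides the 6.01% for DESeq2, the shares of all genes called under these alternatives are not given here. These counts therefore cannot be set against those of all genes. UQCRB missed the threshold under the length and GC correction (adjusted p 0.11), as did COX7B (0.059), and COX4I2 against Day 60 (0.16) and ATP5F1E (0.093) did so with limma-voom.

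Leaving out 1 well at a time gave 1 to 8 genes higher and 0 lower from Day 30 to Day 60, 0 to 4 higher and 2 to 9 lower from Day 60 to Day 113, 8 to 23 higher and 2 to 6 lower from Day 30 to Day 113, and 1 to 5 that differed between the intervals. Shares of all genes are given above only for some counts of the fits without Day 113 replicate 1 or 2, and not for the other counts. The medians ran from 0.18 to 0.23, -0.13 to 0.09 and 0.08 to 0.32. Of 14 calls between Day 30 and Day 113, 9 were made in each of these 11 fits (SDHA, SDHC, SDHD, UQCRQ, UQCR11, COX4I2, COX6C, ATP5MC1 and ATP5PD). Without Day 113 replicate 2 the change of COX6A2 from Day 30 to Day 113 was -0.090 (range over all wells left out -0.090 to 0.17), and without replicate 1 that of UQCRH was 0.029 (range -0.31 to 0.029). The ratio of ATP5MC1 to ATP5MC3 from Day 30 to Day 60 ran from -0.068 to 0.085, with -0.068 without Day 30 replicate 3 and -0.018 without Day 60 replicate 1. That of COX7A1 to COX7A2 ran from -1.65 to 1.49 (1.49 without Day 60 replicate 3) and, from Day 60 to Day 113, from -1.88 to 1.27 (-1.88 without Day 60 replicate 3, -0.27 without Day 113 replicate 3, and -0.12 with a pseudocount of 1).

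The labels do not say whether wells with the same replicate number were paired, and the main fit took them as unpaired. Deviations from the day means correlated at 0.035 to 0.139 over the 10 pairs with the same number, all positive. Over 30 pairs with different numbers the range was -0.108 to 0.122, with both signs. Pairing itself was not tested. For the fit with the replicate number as a block, the shares of all genes called are not given here. With the replicate block, 5 genes were higher at Day 60, the interval calls were 3, the calls of COX4I2 against Day 60 (adjusted p 0.071) and of ATP5F1E (0.083) were lost, those of COX6A1 (0.029) and ATP5MC3 (0.045) from Day 30 to Day 113 were gained, and the ratio of COX6A2 to COX6A1 differed by 1.16, -0.77 and 0.40.

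The deposited TPM values, tested with limma on log2(TPM + 1) and log2(TPM + 0.1), called 0 genes in each comparison, with medians of 0.59 and 0.59 from Day 30 to Day 60 and -0.32 and -0.44 from Day 60 to Day 113. Values of reversed sign, in the same order of pseudocounts, were, from Day 30 to Day 113, SDHA 0.34 and 0.35, UQCRH 0.18 and 0.16, COX5B -2.14 and -2.15, ATP5MC1 -0.19 and -0.37, ATP5MC2 0.57 and 0.57, ATP5PD -0.70 and -0.71, and ATP5PF -1.85 and -1.91. For COX6A2 they were -0.64 and -0.88 to Day 60, 0.67 and 0.98 from Day 60 to Day 113, and 1.31 and 1.87 for the difference between the intervals. On TPM the ratio of COX6A2 to COX6A1 rose by 0.78 from Day 60 to Day 113, and that of ATP5MC1 to ATP5MC3 was -2.55 and -1.22 against Day 30. Gene lengths implied by these values differ between libraries.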
